A study of Caenorhabditis elegans with 6 samples.

Results

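The genes described here encode subunits of ligand-gated ion channels, chosen by name from the platform annotation of a Caenorhabditis elegans array. The rule took every gene whose symbol starts with acr-, lgc-, glr-, nmr-, ggr- or gab-, together with unc-29, unc-38, unc-49, unc-63, exp-1, mod-1 and eat-2. It found 84 genes among the 17118 genes with a probe set of their own, and no ggr- symbol was among them. No measured value entered the rule. Each gene stands for its brightest one-gene probe set, judged by the mean over all arrays, and 9 of the 84 had more than 1.

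RNA was measured in whole L1 larvae, the first larval stage, on 6 Affymetrix arrays, with 2 arrays for each of 3 groups that the series design calls biological replicates. In the first group, elo-5 C13ISO, elo-5(gk208) mutants had mothers supplemented with C13ISO. In the next, elo-5 C17ISO, mothers of the same genotype received C17ISO. The last, called N2 here, holds the wild-type strain N2 with C13ISO. Animals of all 3 groups had spent the generation before on OP50 bacteria carrying 1 mM C17ISO in DMSO, the supplement was then 1 mM of the named fatty acid at 20 °C, and eggs freed by bleaching hatched and stayed without food for 24 h. Both supplements are branched, saturated fatty acids, of which C17ISO is the longer, and elo-5 encodes an elongase that C. elegans needs to make C17ISO. The labels describe the elo-5 C13ISO larvae as deficient in C17ISO. Because N2 with C17ISO was not analysed here, the elo-5 C17ISO and N2 groups differ in genotype and in supplement.

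Ligand-gated ion channels open when a transmitter binds them and so turn a chemical signal at a synapse into a current across the membrane. Cys-loop receptors are rings of 5 subunits and include the nicotinic acetylcholine receptors, the GABA receptors and, in nematodes, channels gated by amines or by acetylcholine that pass chloride. Ionotropic glutamate receptors form a separate family of tetramers, with AMPA-, kainate- and NMDA-type members. In C. elegans these channels carry transmission between neurons and from motor neurons to muscle, and several are the targets of drugs against parasitic worms. The genes named lgc were named by sequence, and many have no ligand assigned in textbooks.

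The deposited values are linear intensities, 1 per probe set and array, with array medians of 107 to 134, and the 2 values of a group are given as replicate 1, then replicate 2. The elo-5 probe set itself read 217 and 144 in elo-5 C13ISO larvae, against 146 and 178 in elo-5 C17ISO larvae and 1169.7 and 1608 in N2 larvae. It was lower in both mutant groups than in N2, and where its probes lie relative to the deletion was not checked here. Spearman correlations over all probe sets were 0.984 to 0.989 within groups, 0.926 to 0.943 between elo-5 C13ISO arrays and those of the other groups, and 0.981 to 0.982 between elo-5 C17ISO and N2. Among 20 markers of all neurons, 18 could be tested. Against elo-5 C17ISO, 2 were higher and none lower in elo-5 C13ISO larvae, beside 26% and 18.8% of all tested probe sets. Against N2, 3 were higher and none lower, beside 23.4% and 20.5%. Of the 18, unc-33 passed the filter described below only through elo-5 C13ISO. The 20 markers summed to 32024 to 32797 on elo-5 C13ISO arrays. Their sums were 29570 to 31564 on elo-5 C17ISO arrays and 27684 to 30313 on N2 arrays. In whole larvae, fewer cells of a type and less RNA per cell cannot be told apart.

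Probe sets with a mean intensity above the 30th percentile, 31.2, were tested with limma on log2(intensity + 16), and a gene is called higher or lower below an adjusted p of 0.05. Of the 84 channel genes, 70 passed this filter and 14 did not. The tested genes nearest to it were glr-2 at a mean of 31.3, acr-6 at 32.0 and lgc-14 at 33.6, and the nearest genes left out were lgc-48 at 22.995, lgc-13 at 20.9 and lgc-5 at 18.4. Among the tested genes, 8 (acr-6, acr-9, exp-1, glr-2, lgc-14, lgc-33, lgc-51 and lgc-52) had at least 1 group whose mean lay below the filter. For 7 of these, all but exp-1, the other 4 arrays averaged less than the filter, so that they were tested only through their brightest group and a difference between groups was a condition of the test. That group was elo-5 C13ISO for acr-9, lgc-33 and lgc-52, elo-5 C17ISO for acr-6 and lgc-14, and N2 for glr-2 and lgc-51. The adjusted p-values given beside the elo-5 C13ISO differences of acr-9, lgc-33, lgc-51 and lgc-52 therefore come from a fit of all 22548 probe sets with no filter. By the manufacturer's suffix, the glr-1 probe set has probes shared with other sequences, and those of glr-2, lgc-4, lgc-20, lgc-44, lgc-47, lgc-49, nmr-1, nmr-2, unc-29 and unc-49 match several transcripts. All differences below are on the log2(intensity + 16) scale, so the change of a dim probe set is understated.

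In elo-5 C13ISO larvae, 18 of the 70 tested channel genes were higher and 11 were lower than in elo-5 C17ISO larvae, and 41 were not called. The called share was 41.4%, near the 44.8% of all 15783 tested probe sets, of which 26% were higher and 18.8% lower. Against N2, 14 channel genes were higher and 12 lower in elo-5 C13ISO larvae, a share of 37.1% beside 43.9% of all probe sets, with 23.4% higher and 20.5% lower. Without the 7 genes tested through 1 group, 15 of 63 were higher and 11 lower against elo-5 C17ISO, beside 24.6% and 19.4% of the probe sets left after the same exclusion, and 12 were higher and 11 lower against N2, beside 22% and 21.1%. With no filter, 2 of the 14 channel genes below the filter were called against elo-5 C17ISO and 3 against N2. Among all probe sets below the filter 9.24% and 8.48% were called in these comparisons, and among all 22548 probe sets 31.4% and 30.5%. The median log2 difference of the tested channel genes was 0.06 against elo-5 C17ISO and 0.05 against N2, beside 0.07 and 0.02 for all tested probe sets. These 2 comparisons share the elo-5 C13ISO arrays, so their values for a gene are not independent of each other. A change of at least 2-fold was called in 3 genes upward and 4 downward against elo-5 C17ISO, beside 11.2% and 7.53% of all probe sets. Against N2 it was called in 5 upward and 4 downward, beside 10.8% and 8.11%. The upward genes included acr-9 and lgc-33 against elo-5 C17ISO, and lgc-33 against N2. Both were tested only through elo-5 C13ISO, so their place in these counts is not separate support.

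The balance of higher and lower channel genes depended on how the arrays were scaled. Against elo-5 C17ISO the count was 18 higher and 11 lower as deposited, 14 and 18 after quantile normalization, and 12 and 19 with array medians aligned. Against N2 it was 14 and 12, 12 and 14, and 13 and 18 in the same order. Over all probe sets called against elo-5 C17ISO, the higher ones were 58% as deposited, 52% after quantile normalization and 36.6% with medians aligned, and 53.4%, 51.2% and 38.7% against N2. Aligning medians moved the median of all probe sets to -0.16 against elo-5 C17ISO and that of the channel genes to -0.17. No channel gene that was called changed sign in any of the 16 alternatives, of which 6 leave out an array. Of the calls, 13 of 29 against elo-5 C17ISO and 13 of 26 against N2 held in every alternative in which the gene was tested. Those that held included acr-9, lgc-33 and lgc-52 against elo-5 C17ISO, and lgc-33 against N2. These genes passed the filter only through elo-5 C13ISO, so their place in the counts is not separate support.

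**Figure D1:**
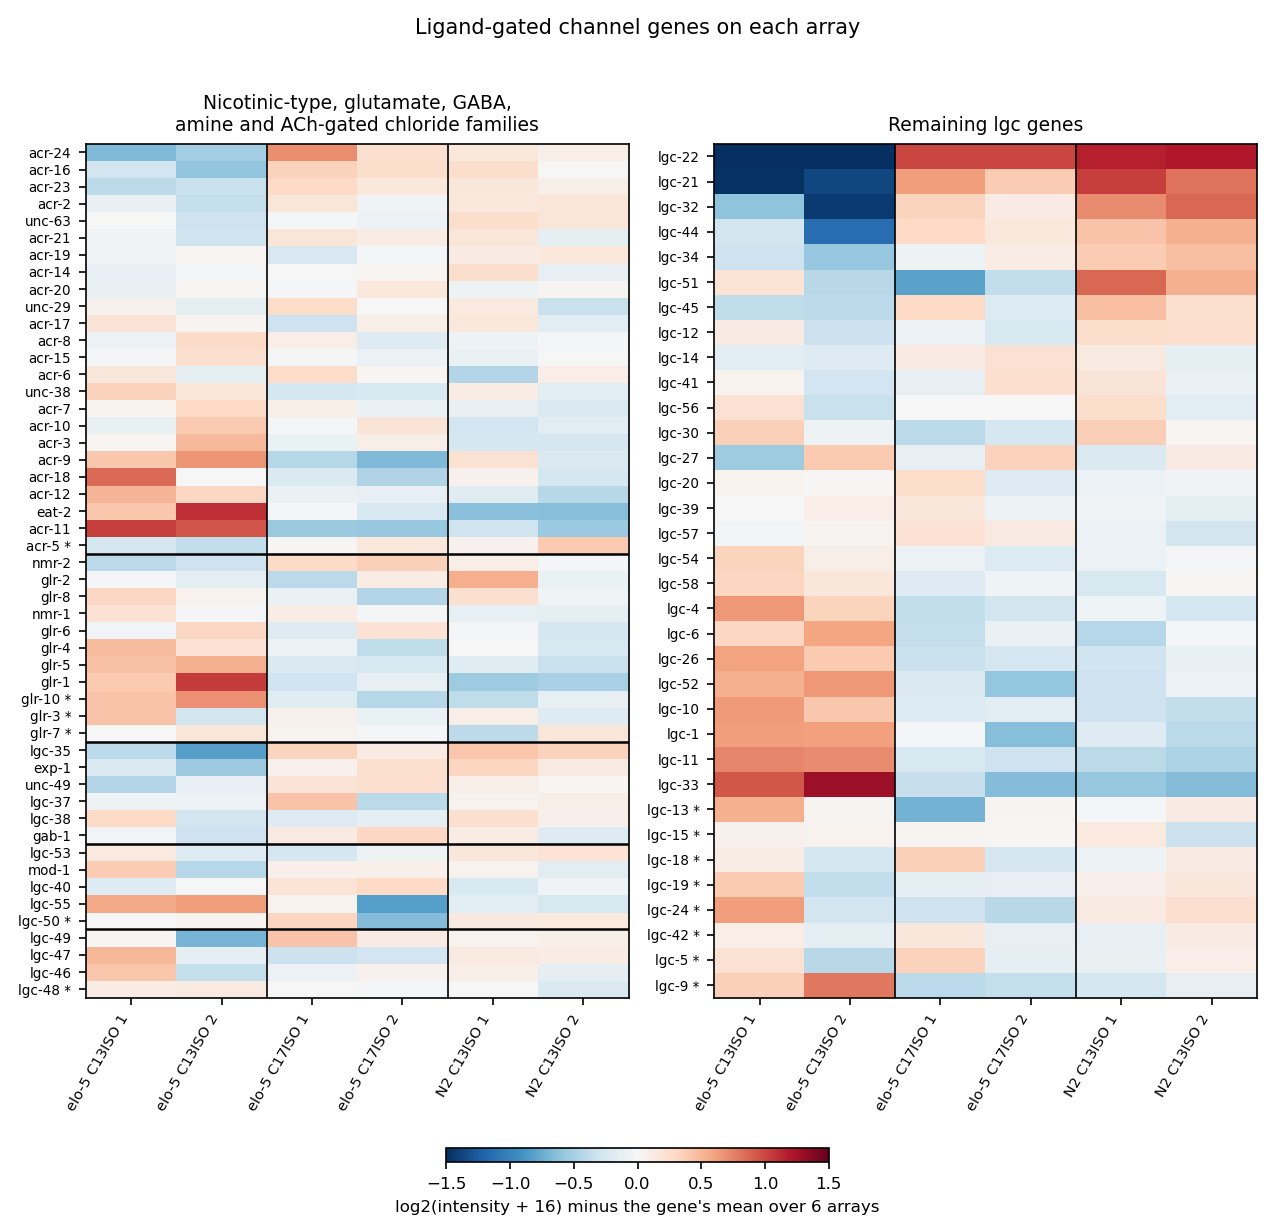
Log2(intensity + 16) of each of the 84 channel genes on each array, minus that gene's mean over the 6 arrays, with the elo-5 C13ISO arrays in the left columns, those of elo-5 C17ISO in the middle and those of N2 on the right, and genes grouped by family; an asterisk marks the 14 genes that were not tested. The columns of elo-5 C17ISO and N2 resemble each other, and the elo-5 C13ISO columns hold both the highest and the lowest values of many genes, such as lgc-33 and lgc-22.

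Nicotinic-type acetylcholine receptor subunits made up 24 of the 84 genes, and 23 were tested. As for each family below, the counts stand beside 26% higher and 18.8% lower of all probe sets against elo-5 C17ISO, and 23.4% and 20.5% against N2. Of these 23 genes, 6 were higher and 3 lower in elo-5 C13ISO larvae than in elo-5 C17ISO larvae, and 3 were higher and 3 lower than in N2. The called genes included acr-11, acr-9, eat-2, acr-18, acr-12 and unc-38 on the higher side and acr-24, acr-16 and acr-23 on the lower side. Of these, acr-9 was called only against elo-5 C17ISO and was tested only through elo-5 C13ISO, so its place in that count is not separate support. The genes acr-6, acr-7, acr-10, acr-14, acr-15, acr-17, acr-19, acr-20 and acr-21 were called in neither comparison as deposited, with differences between -0.33 (acr-21) and 0.22 (acr-17) against elo-5 C17ISO and between -0.20 (acr-21) and 0.36 (acr-10) against N2. Aligning array medians gave 3 higher and 5 lower against elo-5 C17ISO, and quantile normalization gave 4 and 5. Under these scalings acr-21 was called lower against elo-5 C17ISO (adjusted p = 0.0195 with aligned medians and 0.0268 with quantile normalization).

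Acr-11 encodes a subunit of the acr-16 sequence group. Its probe set read 145 and 135 in elo-5 C13ISO larvae, against 37.7 and 37.2 in elo-5 C17ISO larvae and 47.9 and 37.4 in N2 larvae. The elo-5 C13ISO values were more than any other array's, and the other 4 arrays overlapped between groups. Its log2 difference was 1.55 (SE 0.19, adjusted p = 0.000101) against elo-5 C17ISO and 1.42 (SE 0.19, adjusted p = 0.000167) against N2. Acr-9 belongs to the same sequence group and was dim, since acr-9 read 46.8 and 59.1 in elo-5 C13ISO larvae, against 19.4 and 14.1 in elo-5 C17ISO larvae and 39.6 and 24.9 in N2 larvae. With no filter, its difference was 1.07 (SE 0.22, adjusted p = 0.00567) against elo-5 C17ISO and 0.53 (SE 0.22, adjusted p = 0.105) against N2. The elo-5 C17ISO arrays were the lowest for acr-9, with N2 in between.

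Eat-2 encodes a subunit needed for fast pumping of the pharynx, the feeding organ. Its intensity was 353 and 581 in elo-5 C13ISO larvae, against 259.6 and 221 in elo-5 C17ISO larvae and 165 and 163 in N2 larvae. The groups did not overlap in any pair, and the elo-5 C13ISO arrays were the highest and the most spread. The log2 difference was 0.88 (SE 0.22, adjusted p = 0.00895) against elo-5 C17ISO and 1.38 (SE 0.22, adjusted p = 0.000602) against N2. Markers of pharyngeal muscle moved the same way. Of these markers, 7 of 8 were higher in elo-5 C13ISO larvae in both comparisons, beside 26% and 23.4% of all tested probe sets. Their summed intensity was 24977 to 31189 on elo-5 C13ISO arrays, 12739 to 15189 on elo-5 C17ISO arrays and 9486 to 10754 on N2 arrays, none of the 8 was at 0, and their part in the eat-2 difference was not tested. Against elo-5 C17ISO, the call ended for eat-2 without elo-5 C17ISO replicate 2 (adjusted p = 0.0696).

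Subunits of the levamisole receptor, the nicotinic receptor of body wall muscle that the drug levamisole opens, include unc-29, unc-38, unc-63 and acr-8. Unc-38 read 467 and 417 in elo-5 C13ISO larvae, against 302 and 309 in elo-5 C17ISO larvae and 393 and 326 in N2 larvae. Its elo-5 C13ISO values were above all other arrays, with a difference of 0.51 (SE 0.16, adjusted p = 0.0258) against elo-5 C17ISO and 0.29 (SE 0.16, adjusted p = 0.175) against N2. Unc-29 read 326 and 278 in elo-5 C13ISO larvae, against 380.0 and 310.5 in elo-5 C17ISO larvae and 346 and 244 in N2 larvae. Unc-63 read 40.4 and 29.9 in elo-5 C13ISO larvae, against 39.5 and 37.2 in elo-5 C17ISO larvae and 52.05 and 48.3 in N2 larvae. For unc-29 all groups overlapped, and for unc-63 elo-5 C13ISO overlapped with elo-5 C17ISO. The differences were -0.18 (adjusted p = 0.494) and 0.05 (adjusted p = 0.869) for unc-29, and -0.09 (adjusted p = 0.73) and -0.38 (adjusted p = 0.154) for unc-63, each pair against elo-5 C17ISO and against N2. With array medians aligned, unc-63 was called lower than in N2, at -0.54 (adjusted p = 0.0425). Acr-8 read 289.6 and 383 in elo-5 C13ISO larvae, against 332 and 269 in elo-5 C17ISO larvae and 293 and 304 in N2 larvae. Its groups overlapped, and its differences of 0.15 (adjusted p = 0.539) and 0.15 (adjusted p = 0.543) were not called. In the comparison with elo-5 C17ISO, the call was lost for unc-38 without elo-5 C13ISO replicate 1 or elo-5 C17ISO replicate 1 or 2 (adjusted p = 0.0822 to 0.102), and with array medians aligned (adjusted p = 0.159).

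Acr-16 encodes the subunit of the second acetylcholine receptor of body wall muscle, which nicotine opens and levamisole does not. It read 92.05 and 70.8 in elo-5 C13ISO larvae, against 149 and 140.2 in elo-5 C17ISO larvae and 140.4 and 114 in N2 larvae. Both elo-5 C13ISO arrays lay below all 4 others, and the log2 difference was -0.73 (SE 0.19, adjusted p = 0.0101) against elo-5 C17ISO and -0.56 (SE 0.19, adjusted p = 0.0355) against N2. Acr-23, a receptor for betaine, read 64.8 and 68.3 in elo-5 C13ISO larvae, against 114 and 103 in elo-5 C17ISO larvae and 103.8 and 96.96 in N2 larvae. Its difference was -0.59 (SE 0.17, adjusted p = 0.0186) against elo-5 C17ISO and -0.49 (SE 0.17, adjusted p = 0.0413) against N2. Acr-24 read 177 and 197 in elo-5 C13ISO larvae, against 478 and 344 in elo-5 C17ISO larvae and 325 and 308 in N2 larvae. Of the nicotinic-type genes called lower, it had the largest decrease in both comparisons, at -1.06 (SE 0.18, adjusted p = 0.00106) against elo-5 C17ISO and -0.71 (SE 0.18, adjusted p = 0.0102) against N2. Of 16 markers of body wall muscle, 3 were lower and none higher against elo-5 C17ISO, beside 18.8% and 26% of all tested probe sets. Against N2, 4 were lower and 2 higher, beside 20.5% and 23.4%. The 16 markers summed to 64304 to 65030 on elo-5 C13ISO arrays, 61560 to 65937 on elo-5 C17ISO arrays and 64962 to 67637 on N2 arrays. None was at 0, and their part was not tested. With elo-5 C17ISO as the comparison, the adjusted p was above 0.05 for acr-16 without elo-5 C17ISO replicate 1 (adjusted p = 0.0643), and for acr-23 without elo-5 C17ISO replicate 1 or 2 (adjusted p = 0.0539 to 0.11). Set against N2, the test missed its threshold for acr-16 without elo-5 C13ISO replicate 2, elo-5 C17ISO replicate 1 or 2 or N2 replicate 1 or 2 (adjusted p = 0.0575 to 0.225), and with no filter or in a fit of only the arrays compared (adjusted p = 0.0596 to 0.0621), for acr-23 without elo-5 C13ISO replicate 1 or 2, elo-5 C17ISO replicate 1 or 2 or N2 replicate 1 or 2 (adjusted p = 0.0621 to 0.188), and with no filter or in a fit of only the arrays compared (adjusted p = 0.0619 to 0.0666), and for acr-24 without N2 replicate 1 (adjusted p = 0.0656).

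Acr-2, acr-3 and acr-12 contribute to acetylcholine receptors on motor neurons, and acr-2 and acr-3 lie next to each other in the genome with no coding gene between them. Acr-12 read 216 and 186 in elo-5 C13ISO larvae, against 136 and 134 in elo-5 C17ISO larvae and 127 and 106 in N2 larvae. The elo-5 C13ISO arrays were the highest, and the difference was 0.52 (SE 0.17, adjusted p = 0.0328) against elo-5 C17ISO and 0.71 (SE 0.17, adjusted p = 0.00747) against N2. Acr-2 read 100.5 and 82.3 in elo-5 C13ISO larvae, against 126 and 105 in elo-5 C17ISO larvae and 124 and 126 in N2 larvae. Acr-3 read 60.1 and 88.6 in elo-5 C13ISO larvae, against 53.8 and 63.2 in elo-5 C17ISO larvae and 46.3 and 46.8 in N2 larvae. Acr-2 was below and acr-3 was near or above the other groups in elo-5 C13ISO, but neither was called, at -0.29 (adjusted p = 0.215) and -0.40 (adjusted p = 0.104) for acr-2 and 0.26 (adjusted p = 0.337) and 0.51 (adjusted p = 0.073) for acr-3. Acr-18 read 154 and 79.03 in elo-5 C13ISO larvae, against 65.2 and 53.1 in elo-5 C17ISO larvae and 82.5 and 62.9 in N2 larvae. It differed by 0.76 (SE 0.27, adjusted p = 0.042) against elo-5 C17ISO and 0.53 (SE 0.27, adjusted p = 0.143) against N2, and its elo-5 C13ISO arrays lay far apart. Quantile normalization and aligned medians called acr-2 lower against elo-5 C17ISO (adjusted p = 0.0282 in each) and N2 (adjusted p = 0.0239 and 0.022), and against N2 acr-3 was called higher without elo-5 C13ISO replicate 1 (adjusted p = 0.0218) and acr-18 without elo-5 C13ISO replicate 2 (adjusted p = 0.0114). Relative to elo-5 C17ISO, no call remained for acr-12 without elo-5 C13ISO replicate 1, elo-5 C17ISO replicate 1 or 2 or N2 replicate 1 or 2 (adjusted p = 0.051 to 0.125), and with no filter, with quantile normalization, with array medians aligned or in a fit of only the arrays compared (adjusted p = 0.0513 to 0.164), and for acr-18 without elo-5 C13ISO replicate 1, elo-5 C17ISO replicate 1 or 2 or N2 replicate 1 or 2 (adjusted p = 0.0503 to 0.271), and with no filter, with quantile normalization, with array medians aligned, without an intensity trend or in a fit of only the arrays compared (adjusted p = 0.0513 to 0.0972). Against N2, the call ended for acr-12 without N2 replicate 2 (adjusted p = 0.082).

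The 11 glutamate receptor genes comprise the glr genes, of the AMPA and kainate type, and nmr-1 and nmr-2, of the NMDA type. Of 8 tested, 3 were higher and 1 lower in elo-5 C13ISO larvae than in elo-5 C17ISO larvae, and 2 were higher and none lower than in N2. Under quantile normalization and with array medians aligned the counts were 2 higher and 1 lower in both comparisons.

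Glr-1 encodes an AMPA-type subunit of the interneurons that command forward and backward movement. It read 354 and 565 in elo-5 C13ISO larvae, against 213 and 242 in elo-5 C17ISO larvae and 179 and 186 in N2 larvae. The elo-5 C13ISO arrays stood above the rest and were apart from each other. Its difference was 0.93 (SE 0.21, adjusted p = 0.00525) against elo-5 C17ISO and 1.23 (SE 0.21, adjusted p = 0.000995) against N2, and a second glr-1 probe set gave 0.69 (adjusted p = 0.0197) and 0.87 (adjusted p = 0.00621) in the same comparisons. Glr-5 read 437 and 467 in elo-5 C13ISO larvae, against 272 and 267 in elo-5 C17ISO larvae and 279 and 249.6 in N2 larvae. Here all 3 groups were tight and elo-5 C13ISO lay above both others, at 0.71 (SE 0.15, adjusted p = 0.0037) against elo-5 C17ISO and 0.74 (SE 0.15, adjusted p = 0.0029) against N2. Glr-4 read 321 and 267 in elo-5 C13ISO larvae, against 215 and 170.0 in elo-5 C17ISO larvae and 227 and 189.7 in N2 larvae. Its difference was 0.58 (SE 0.19, adjusted p = 0.0284) against elo-5 C17ISO and 0.47 (SE 0.19, adjusted p = 0.0653) against N2, while another glr-4 probe set gave 0.26 (adjusted p = 0.31) against elo-5 C17ISO. In the comparison with elo-5 C17ISO, the call was lost for glr-4 without elo-5 C13ISO replicate 1 or elo-5 C17ISO replicate 2 (adjusted p = 0.112 to 0.192), and with quantile normalization, with array medians aligned or with the mean of its probe sets (adjusted p = 0.0598 to 0.28).

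Nmr-2 was the glutamate receptor gene called lower. It read 82.8 and 89.3 in elo-5 C13ISO larvae, against 145 and 151 in elo-5 C17ISO larvae and 125 and 112 in N2 larvae. Both elo-5 C13ISO arrays were below the 4 others, with a difference of -0.69 (SE 0.17, adjusted p = 0.00775) against elo-5 C17ISO and -0.40 (SE 0.17, adjusted p = 0.0827) against N2. Nmr-1, the other NMDA-type subunit, read 71.3 and 57.9 in elo-5 C13ISO larvae, against 65.3 and 57.6 in elo-5 C17ISO larvae and 53.3 and 51.7 in N2 larvae. It differed by 0.05 (adjusted p = 0.839) and 0.23 (adjusted p = 0.36) and overlapped with elo-5 C17ISO. Glr-2, which assembles with glr-1, read 29.6 and 26.1 in elo-5 C13ISO larvae, against 19.1 and 34.1 in elo-5 C17ISO larvae and 51.7 and 27.3 in N2 larvae. Its groups overlapped in all comparisons, at 0.06 (adjusted p = 0.87) and -0.31 (adjusted p = 0.391). Glr-3 read 11.96 and 1.22 in elo-5 C13ISO larvae, against 5.75 and 3.48 in elo-5 C17ISO larvae and 6.13 and 2.29 in N2 larvae. Those glr-3 values are far below the filter and were not tested. Nmr-2 was called lower than in N2 after quantile normalization (adjusted p = 0.0181), with aligned medians (adjusted p = 0.0185) and without an intensity trend (adjusted p = 0.0463). Glr-6 and glr-8 were not called, at 0.12 (adjusted p = 0.672) and 0.27 (adjusted p = 0.316) for glr-6 and 0.46 (adjusted p = 0.115) and 0.09 (adjusted p = 0.765) for glr-8. With elo-5 C17ISO as the comparison, the adjusted p was above 0.05 for nmr-2 without elo-5 C17ISO replicate 2 (adjusted p = 0.0532).

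None of the 6 GABA receptor genes was higher in elo-5 C13ISO larvae in either comparison, and 2 were lower in each. With array medians aligned, 4 were lower against elo-5 C17ISO and 3 against N2, and with quantile normalization 4 and 2. Unc-49 encodes the GABA-gated chloride channel that relaxes body wall muscle. It read 1013 and 1266 in elo-5 C13ISO larvae, against 1576 and 1649 in elo-5 C17ISO larvae and 1469.6 and 1404 in N2 larvae. The elo-5 C13ISO arrays lay below all others, and the difference was -0.50 (SE 0.13, adjusted p = 0.0117) against elo-5 C17ISO and -0.34 (SE 0.13, adjusted p = 0.0646) against N2. Other unc-49 probe sets gave -0.29 (adjusted p = 0.0982) and -0.36 (adjusted p = 0.173) against elo-5 C17ISO. Against N2, unc-49 was called lower with aligned medians (adjusted p = 0.0157) and without elo-5 C13ISO replicate 2 (adjusted p = 0.0137). Set against elo-5 C17ISO, the test missed its threshold for unc-49 without elo-5 C13ISO replicate 1 or elo-5 C17ISO replicate 2 (adjusted p = 0.052 to 0.0617), and with the mean of its probe sets (adjusted p = 0.0813).

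Exp-1 and lgc-35 encode GABA-gated channels that pass cations, and exp-1 acts in the muscles of defecation. Lgc-35 read 83.7 and 57.8 in elo-5 C13ISO larvae, against 149.9 and 126 in elo-5 C17ISO larvae and 159 and 151 in N2 larvae. Its elo-5 C13ISO arrays were below the 4 others, and the difference was -0.84 (SE 0.20, adjusted p = 0.00606) against elo-5 C17ISO and -0.99 (SE 0.20, adjusted p = 0.00232) against N2. Exp-1 read 33.5 and 23.6 in elo-5 C13ISO larvae, against 44.3 and 52.2 in elo-5 C17ISO larvae and 56 and 47.1 in N2 larvae. The elo-5 C13ISO mean of exp-1 lay below the filter, and the difference was -0.53 (SE 0.21, adjusted p = 0.0592) against elo-5 C17ISO and -0.61 (SE 0.21, adjusted p = 0.0374) against N2. Gab-1 read 144 and 117 in elo-5 C13ISO larvae, against 166 and 188 in elo-5 C17ISO larvae and 163 and 129 in N2 larvae. It overlapped with N2 and was not called, at -0.40 (adjusted p = 0.11) and -0.14 (adjusted p = 0.581). Its genomic neighbour lgc-37 and lgc-38, both related to GABA receptors by sequence, were not called, with values of -0.10 (adjusted p = 0.773) and -0.15 (adjusted p = 0.651) and of 0.18 (adjusted p = 0.51) and -0.14 (adjusted p = 0.608) against elo-5 C17ISO and N2. Against elo-5 C17ISO, quantile normalization and aligned medians called gab-1 lower (adjusted p = 0.0183 and 0.013) and exp-1 lower (adjusted p = 0.0239 and 0.00982), and exp-1 was also called without elo-5 C13ISO replicate 1 (adjusted p = 0.0396), without an intensity trend (adjusted p = 0.0333) and with the mean of a gene's probe sets (adjusted p = 0.0498). Relative to elo-5 C17ISO, no call remained for lgc-35 without elo-5 C17ISO replicate 1 (adjusted p = 0.0557). Against N2, the call ended for exp-1 without elo-5 C13ISO replicate 2, elo-5 C17ISO replicate 1 or 2 or N2 replicate 1 or 2 (adjusted p = 0.0501 to 0.2).

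As channels gated by amines, 5 genes were grouped here, a list that need not be complete, and 4 were tested. Among these, lgc-55, a chloride channel opened by tyramine that acts in the escape response, was the called one. It read 161 and 169 in elo-5 C13ISO larvae, against 108 and 51.2 in elo-5 C17ISO larvae and 89.9 and 84.8 in N2 larvae. The elo-5 C13ISO arrays agreed closely and lay above all others, while the elo-5 C17ISO arrays were far apart. Its difference was 0.98 (SE 0.26, adjusted p = 0.0112) against elo-5 C17ISO and 0.81 (SE 0.26, adjusted p = 0.0291) against N2. Tdc-1, which makes tyramine and is described with the transmitter genes, was called in the same direction. Mod-1, a chloride channel opened by serotonin, read 154 and 81.4 in elo-5 C13ISO larvae, against 121 and 121 in elo-5 C17ISO larvae and 119.9 and 101 in N2 larvae. Lgc-40, another serotonin-gated chloride channel, read 167 and 192 in elo-5 C13ISO larvae, against 226 and 240.8 in elo-5 C17ISO larvae and 163 and 184 in N2 larvae. Neither was called as deposited, at -0.09 (adjusted p = 0.787) and 0.03 (adjusted p = 0.935) for mod-1 and -0.35 (adjusted p = 0.11) and 0.04 (adjusted p = 0.856) for lgc-40, which was called lower than in elo-5 C17ISO larvae after quantile normalization (adjusted p = 0.0306) and with aligned medians (adjusted p = 0.0179). Lgc-53, gated by dopamine, gave 0.13 (adjusted p = 0.596) and -0.22 (adjusted p = 0.39). Lgc-50, a serotonin-gated cation channel, read 13.9 and 14.8 in elo-5 C13ISO larvae, against 21.4 and 3.02 in elo-5 C17ISO larvae and 16.9 and 17.1 in N2 larvae. It was below the filter and not tested. In the comparison with elo-5 C17ISO, the call was lost for lgc-55 without elo-5 C17ISO replicate 2 (adjusted p = 0.0943). With N2 as the comparison, the adjusted p was above 0.05 for lgc-55 without elo-5 C13ISO replicate 1 or 2 or N2 replicate 1 or 2 (adjusted p = 0.0672 to 0.12), and with no filter or with quantile normalization (adjusted p = 0.0554 to 0.0565).

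The family of acetylcholine-gated chloride channels held lgc-46, lgc-47, lgc-48 and lgc-49, and of the 3 tested none was called in either comparison as deposited. Lgc-49 read 278 and 163 in elo-5 C13ISO larvae, against 374 and 299 in elo-5 C17ISO larvae and 286 and 291 in N2 larvae. Its elo-5 C13ISO arrays lay below the rest at -0.61 (SE 0.23, adjusted p = 0.0525) against elo-5 C17ISO and -0.41 (SE 0.23, adjusted p = 0.181) against N2. Without elo-5 C13ISO replicate 1 it was called lower against elo-5 C17ISO (adjusted p = 0.00343) and N2 (adjusted p = 0.0106), and 4 other alternatives called it against elo-5 C17ISO (adjusted p = 0.00769 to 0.0495) and aligned medians against N2 (adjusted p = 0.0485). Lgc-46 gave 0.04 (adjusted p = 0.912) and 0.05 (adjusted p = 0.882), and lgc-47 gave 0.48 (adjusted p = 0.113) and 0.05 (adjusted p = 0.885), against elo-5 C17ISO and N2. Lgc-47 was called higher than in elo-5 C17ISO larvae without elo-5 C13ISO replicate 2 (adjusted p = 0.014).

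The remaining 34 lgc genes held the largest differences of the set. Of 26 tested, 8 were higher and 5 lower in elo-5 C13ISO larvae than in elo-5 C17ISO larvae, and 8 were higher and 7 lower than in N2. The higher genes of both comparisons included lgc-33 and lgc-52, tested only through elo-5 C13ISO. The lower genes against N2 included lgc-51, tested only through N2. The place of these genes in the counts is not separate support. Quantile normalization gave 7 higher and 6 lower against elo-5 C17ISO, and aligned medians 6 and 7. The genes lgc-12, lgc-14, lgc-20, lgc-27, lgc-30, lgc-39, lgc-41, lgc-54, lgc-56, lgc-57 and lgc-58 were called in neither comparison as deposited, with differences between -0.36 (lgc-14) and 0.47 (lgc-30) against elo-5 C17ISO and between -0.35 (lgc-12) and 0.36 (lgc-58) against N2. Leaving out elo-5 C13ISO replicate 2 called lgc-27 lower (adjusted p = 0.043) and lgc-30 higher (adjusted p = 0.0328) against elo-5 C17ISO, and leaving out elo-5 C13ISO replicate 1 called lgc-12 lower against N2 (adjusted p = 0.0322). With aligned medians lgc-12 was called lower against N2 (adjusted p = 0.0364). Lgc-14 was called lower against elo-5 C17ISO in that fit, but it was tested only through elo-5 C17ISO. That call is therefore given without its p-value, and with no filter, as deposited, the adjusted limma p of lgc-14 was 0.183. The largest decreases were in lgc-22, lgc-21 and lgc-32, and the largest fitted increase was in lgc-33, one of the genes tested only through elo-5 C13ISO.

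Lgc-22 read 284 and 381 in elo-5 C13ISO larvae, against 3129 and 3125 in elo-5 C17ISO larvae and 3486 and 3576 in N2 larvae. All arrays outside elo-5 C13ISO were within a narrow range. Its log2 difference was -3.19 (SE 0.14, adjusted p = 1.42e-07) against elo-5 C17ISO and -3.36 (SE 0.14, adjusted p = 1.20e-07) against N2, a fall of 9.11-fold and 10.3-fold. Lgc-21 read 252 and 274 in elo-5 C13ISO larvae, against 1141 and 965 in elo-5 C17ISO larvae and 1528 and 1301 in N2 larvae. The elo-5 C17ISO arrays stood between elo-5 C13ISO and N2. Its difference was -1.93 (SE 0.15, adjusted p = 5.38e-06) against elo-5 C17ISO and -2.35 (SE 0.15, adjusted p = 1.30e-06) against N2. Lgc-32 read 98.9 and 48.6 in elo-5 C13ISO larvae, against 203 and 174 in elo-5 C17ISO larvae and 269 and 302 in N2 larvae. It had the same order of groups, with elo-5 C13ISO arrays that differed from each other, and a difference of -1.24 (SE 0.25, adjusted p = 0.00256) against elo-5 C17ISO and -1.80 (SE 0.25, adjusted p = 0.000237) against N2. The calls on these 3 genes held in all alternatives in which they were tested.

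Lgc-44 read 309.8 and 163 in elo-5 C13ISO larvae, against 472 and 427 in elo-5 C17ISO larvae and 515 and 554 in N2 larvae. Its elo-5 C13ISO arrays were the lowest and differed widely, and the difference was -0.94 (SE 0.24, adjusted p = 0.01) against elo-5 C17ISO and -1.19 (SE 0.24, adjusted p = 0.00282) against N2. Lgc-34 read 503 and 418 in elo-5 C13ISO larvae, against 592 and 675 in elo-5 C17ISO larvae and 819.7 and 862 in N2 larvae. N2 was highest for lgc-34 and elo-5 C13ISO lowest, at -0.45 (SE 0.15, adjusted p = 0.0346) against elo-5 C17ISO and -0.85 (SE 0.15, adjusted p = 0.00119) against N2. Lgc-45 read 66.2 and 65.5 in elo-5 C13ISO larvae, against 116 and 77.02 in elo-5 C17ISO larvae and 131 and 111 in N2 larvae. The difference of lgc-45 was -0.43 (SE 0.21, adjusted p = 0.117) against elo-5 C17ISO and -0.74 (SE 0.21, adjusted p = 0.016) against N2. It was called lower against elo-5 C17ISO with quantile normalization, at -0.67 (adjusted p = 0.0188), and with aligned medians, at -0.66 (adjusted p = 0.0161). Lgc-51 read 38.2 and 19.1 in elo-5 C13ISO larvae, against 10.9 and 20.4 in elo-5 C17ISO larvae and 69.3 and 51.98 in N2 larvae. Lgc-51 was tested only through N2, whose arrays stood above both mutant groups, and with no filter it gave 0.48 (SE 0.26, adjusted p = 0.21) against elo-5 C17ISO and -0.80 (SE 0.26, adjusted p = 0.0478) against N2. Set against elo-5 C17ISO, the test missed its threshold for lgc-44 without elo-5 C17ISO replicate 1 (adjusted p = 0.0636), and for lgc-34 without elo-5 C13ISO replicate 2, elo-5 C17ISO replicate 1 or 2 or N2 replicate 1 or 2 (adjusted p = 0.0517 to 0.178), and in a fit of only the arrays compared (adjusted p = 0.0707). Relative to N2, no call remained for lgc-45 without N2 replicate 1, at -0.63, and with the mean of its probe sets (adjusted p = 0.126). In fits that kept the filter, none remained for lgc-51 without elo-5 C13ISO replicate 2, at -0.49, or with an offset of 1, at -1.12.

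Lgc-33 read 103 and 136 in elo-5 C13ISO larvae, against 32.98 and 23.7 in elo-5 C17ISO larvae and 25.99 and 23.8 in N2 larvae. Both other groups had means below the filter, so the gene was tested only through elo-5 C13ISO, which was clear of them. With no filter the difference was 1.60 (SE 0.21, adjusted p = 0.000553) against elo-5 C17ISO and 1.71 (SE 0.21, adjusted p = 0.000366) against N2. A second lgc-33 probe set, which also passed only through elo-5 C13ISO, read 66.7 and 61.04 in elo-5 C13ISO larvae, against 27.1 and 24.5 in elo-5 C17ISO larvae and 30.6 and 28.02 in N2 larvae, and is given without a test. Lgc-11 read 129 and 125 in elo-5 C13ISO larvae, against 57.4 and 53.98 in elo-5 C17ISO larvae and 49.4 and 46.2 in N2 larvae. Its replicates were close in every group. The difference was 1.00 (SE 0.18, adjusted p = 0.00113) against elo-5 C17ISO and 1.17 (SE 0.18, adjusted p = 0.000403) against N2, with both other groups above the filter. A second lgc-11 probe set passed only through elo-5 C13ISO and is given without a test, at 60.7 and 83.9 in elo-5 C13ISO larvae, against 18.1 and 9.98 in elo-5 C17ISO larvae and 8.93 and 7.21 in N2 larvae. Lgc-52 read 64.95 and 72.3 in elo-5 C13ISO larvae, against 32.4 and 21.4 in elo-5 C17ISO larvae and 29.4 and 36.8 in N2 larvae. It too was tested only through elo-5 C13ISO, and with no filter it differed by 0.99 (SE 0.20, adjusted p = 0.00621) against elo-5 C17ISO and 0.79 (SE 0.20, adjusted p = 0.0186) against N2. The calls on lgc-11 held in all alternatives in which it was tested. Those on lgc-33 held too, but apart from the fit with no filter these alternatives kept a filter on mean intensity. For lgc-33 they are therefore not separate support. In fits that kept the filter, the call on lgc-52 against N2 ended without elo-5 C13ISO replicate 2, at 0.73, or without N2 replicate 1, at 0.68.

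Lgc-1 read 142 and 141 in elo-5 C13ISO larvae, against 85.1 and 49.8 in elo-5 C17ISO larvae and 73.8 and 61.6 in N2 larvae. Its elo-5 C13ISO arrays were almost equal and above the other 4. The difference was 0.95 (SE 0.22, adjusted p = 0.00628) against elo-5 C17ISO and 0.92 (SE 0.22, adjusted p = 0.00772) against N2. Lgc-10 read 110.4 and 92.2 in elo-5 C13ISO larvae, against 54.8 and 56.9 in elo-5 C17ISO larvae and 49.6 and 47 in N2 larvae. It differed by 0.70 (SE 0.18, adjusted p = 0.0106) against elo-5 C17ISO and 0.86 (SE 0.18, adjusted p = 0.00347) against N2. Lgc-4 read 181 and 142 in elo-5 C13ISO larvae, against 81.3 and 87.9 in elo-5 C17ISO larvae and 104.4 and 88.4 in N2 larvae. The elo-5 C13ISO arrays again lay above all others, at 0.81 (SE 0.19, adjusted p = 0.00547) against elo-5 C17ISO and 0.65 (SE 0.19, adjusted p = 0.017) against N2. Lgc-26 read 77.4 and 64.4 in elo-5 C13ISO larvae, against 32.8 and 35.6 in elo-5 C17ISO larvae and 33.9 and 40.8 in N2 larvae. It gave 0.79 (SE 0.20, adjusted p = 0.00807) against elo-5 C17ISO and 0.70 (SE 0.20, adjusted p = 0.0147) against N2. Lgc-6, whose neighbour lgc-5 was not tested, gave 0.68 (SE 0.22, adjusted p = 0.0287) against elo-5 C17ISO and 0.67 (SE 0.22, adjusted p = 0.0299) against N2. In the comparison with elo-5 C17ISO, the call was lost for lgc-1 without elo-5 C17ISO replicate 2 (adjusted p = 0.0646), for lgc-10 without elo-5 C17ISO replicate 1 (adjusted p = 0.0565), and with array medians aligned (adjusted p = 0.0502), and for lgc-6 without elo-5 C13ISO replicate 2 or elo-5 C17ISO replicate 1 or 2 (adjusted p = 0.0522 to 0.158), and with quantile normalization or with array medians aligned (adjusted p = 0.125 to 0.135). With N2 as the comparison, the adjusted p was above 0.05 for lgc-1 without N2 replicate 2 (adjusted p = 0.0634), for lgc-4 without elo-5 C13ISO replicate 1 or N2 replicate 2 (adjusted p = 0.0772 to 0.134), for lgc-26 without elo-5 C13ISO replicate 1 or N2 replicate 1 (adjusted p = 0.0647 to 0.106), and for lgc-6 without elo-5 C13ISO replicate 2 or N2 replicate 1 (adjusted p = 0.141 to 0.219), and with quantile normalization or with array medians aligned (adjusted p = 0.0923 to 0.12).

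**Figure D2:**
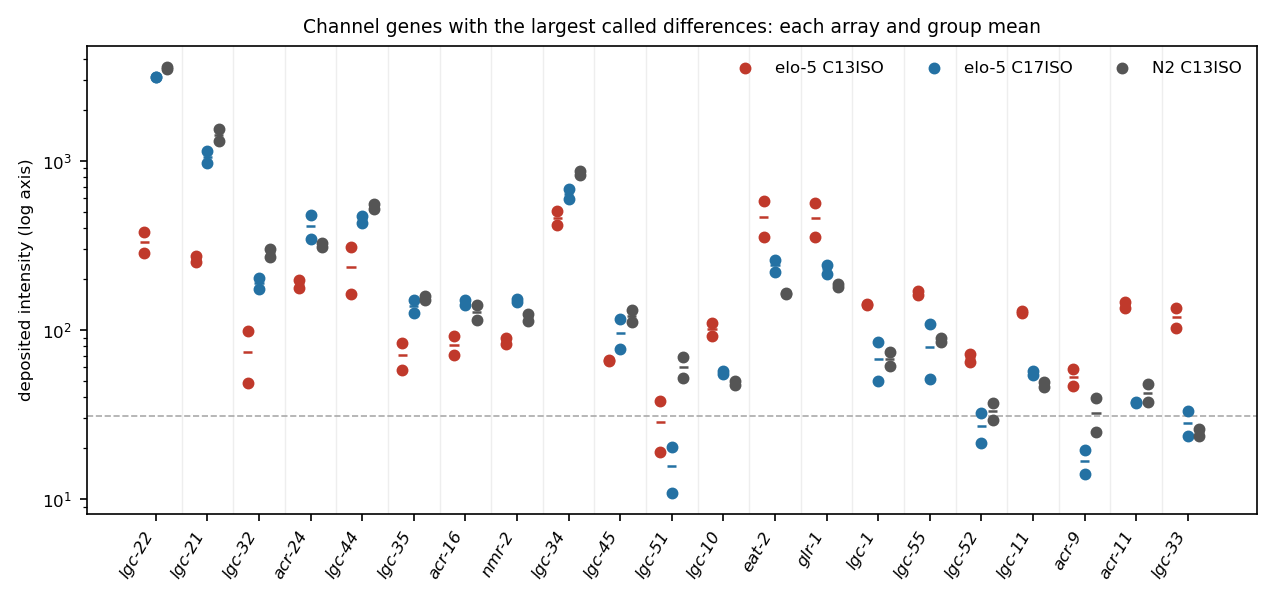
Deposited intensity on a log axis for the channel genes with the largest called differences, with 1 point per array and a bar at each group mean, in red for elo-5 C13ISO, blue for elo-5 C17ISO and grey for N2 (2 arrays each); the dashed line is the filter at 31.2. For lgc-22 and lgc-21 both elo-5 C13ISO points lie below the other 4, and for lgc-33 and acr-11 both lie above them.

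In elo-5 C17ISO larvae none of the 70 tested channel genes was called higher or lower than in N2, beside 1.41% of all tested probe sets, and 8 had an unadjusted limma p under 0.05, beside 15.7% of all. The 95% interval of the difference lay within 2-fold in either direction for 67 of 70 genes, or 95.7%, beside 92.1% of all probe sets. The median difference was -0.01 for the channel genes and -0.04 for all probe sets. Eat-2 had the highest value, 0.50 (SE 0.22, adjusted p = 0.307). The lowest was that of lgc-51, -1.28 (SE 0.27, adjusted p = 0.0506), which read 10.9 and 20.4 in elo-5 C17ISO larvae against 69.3 and 51.98 in N2 larvae. It was called lower with quantile normalization (adjusted p = 0.0481), with array medians aligned (adjusted p = 0.0400), in a fit of only the arrays compared (adjusted p = 0.0241), with the mean of a gene's probe sets (adjusted p = 0.0367), and without elo-5 C13ISO replicate 1 or 2 (adjusted p = 0.0273 and 0.0259). Each of these fits tested it only through its N2 arrays, and with no filter the adjusted p was 0.0961.

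**Figure D3:**
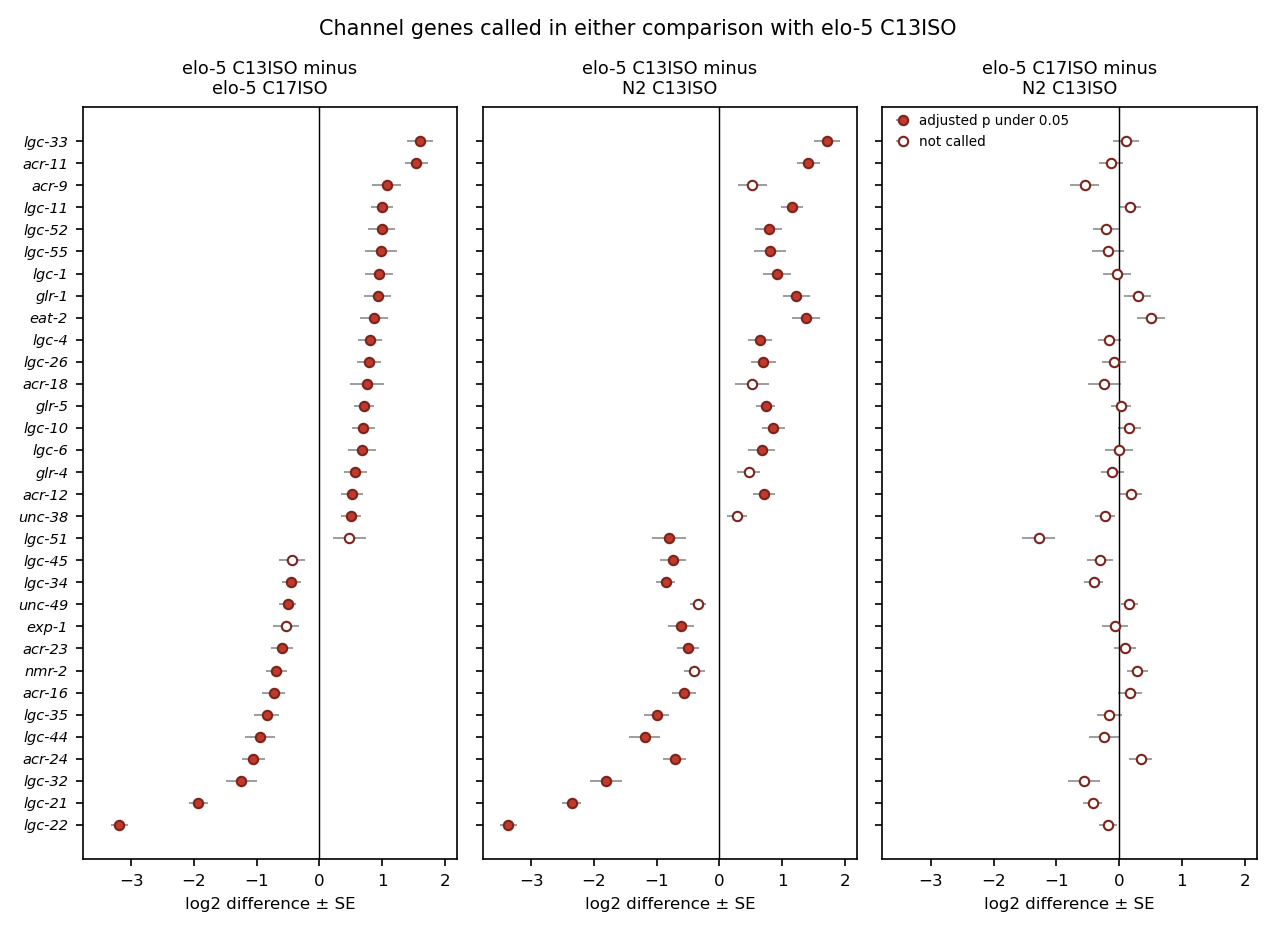
Log2 difference with its SE for each channel gene called in either comparison with elo-5 C13ISO, in 3 panels, with elo-5 C13ISO set against elo-5 C17ISO on the left and against N2 in the middle, and elo-5 C17ISO set against N2 on the right; filled points have an adjusted p under 0.05. The first 2 panels run from below -3 for lgc-22 to above 1.5 for lgc-33, and no point of the third panel is filled. Filling follows the fit with the filter, which acr-9, lgc-33, lgc-51 and lgc-52 passed only through 1 group.

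The spread between arrays was wider in elo-5 C13ISO than in the other groups. The 2 arrays of a group differed by more than 1.5-fold in 11 of 70 channel genes for elo-5 C13ISO, in 3 for elo-5 C17ISO and in 1 for N2, or 15.7%, 4.29% and 1.43%. Over all tested probe sets the shares were 9.4%, 4.71% and 2.63%.

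Other genes of the same pathways were followed in 3 lists, whose counts stand beside 26% higher and 18.8% lower of all tested probe sets against elo-5 C17ISO, and 23.4% and 20.5% against N2. The median difference of all tested probe sets was 0.07 and 0.02 in the same order. The first held 17 further ligand-gated subunits whose names fall outside the rule, of which 15 were on the array with a probe set of their own and tested. In elo-5 C13ISO larvae 4 were higher and 2 lower than in elo-5 C17ISO larvae, and 4 were higher and 3 lower than in N2, with medians of 0.33 and 0.35. Glc-1, a glutamate-gated chloride channel, read 1048 and 779 in elo-5 C13ISO larvae, against 329 and 274 in elo-5 C17ISO larvae and 222 and 184 in N2 larvae. Its elo-5 C13ISO arrays were above all others, at 1.54 (SE 0.19, adjusted p = 0.000112) against elo-5 C17ISO and 2.08 (SE 0.19, adjusted p = 1.43e-05) against N2. Glc-4, of the same family, gave 0.76 (adjusted p = 0.00461) and 0.73 (adjusted p = 0.00579), and deg-3, a nicotinic-type subunit, gave -0.52 (adjusted p = 0.0371) and -0.72 (adjusted p = 0.00824). The higher count against N2 was 1 without N2 replicate 1 and 2 without N2 replicate 2, and the lower count 0 and 1. Against elo-5 C17ISO the higher count was 2 without elo-5 C17ISO replicate 2 and 2 with array medians aligned, and the lower count fell to 0 or 1 whichever array was left out, to 1 with no filter and to 0 in a fit of only the arrays compared. Set against elo-5 C17ISO, the test missed its threshold for deg-3 without elo-5 C13ISO replicate 2, elo-5 C17ISO replicate 1 or 2 or N2 replicate 1 or 2 (adjusted p = 0.0547 to 0.153), and with no filter or in a fit of only the arrays compared (adjusted p = 0.0573 to 0.0609). Relative to N2, no call remained for glc-4 without N2 replicate 1 (adjusted p = 0.0575), and for deg-3 without N2 replicate 1 (adjusted p = 0.0853).

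The second list held 22 genes for receptor assembly, auxiliary subunits and clustering, with 17 on the array, all tested. In elo-5 C13ISO larvae 6 were higher and 4 lower than in elo-5 C17ISO larvae, and 5 were higher and 4 lower than in N2, with medians of 0.31 and 0.08. Lev-10, which clusters levamisole receptors at the synapse, read 1559 and 2369 in elo-5 C13ISO larvae, against 876 and 888 in elo-5 C17ISO larvae and 765 and 790.3 in N2 larvae. On elo-5 C13ISO arrays it was highest, at 1.11 (SE 0.18, adjusted p = 0.000655) against elo-5 C17ISO and 1.29 (SE 0.18, adjusted p = 0.000237) against N2. Kel-8, which acts in the turnover of glr-1 protein, gave 1.32 (adjusted p = 0.000182) and 1.44 (adjusted p = 9.43e-05). Cam-1, a receptor tyrosine kinase needed to place acr-16 at synapses, gave 1.16 (adjusted p = 0.000509) and 0.91 (adjusted p = 0.0023). Molo-1, an auxiliary subunit of the levamisole receptor, gave 0.90 (adjusted p = 0.00161) and 0.35 (adjusted p = 0.124). Nra-2, which acts in receptor assembly in the endoplasmic reticulum, was lower at -0.63 (adjusted p = 0.00134) and -0.68 (adjusted p = 0.000865). The lower count was 2 without either elo-5 C17ISO array against elo-5 C17ISO, and 2 without either N2 array against N2.

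The third list held 27 genes for making, packaging and clearing transmitters, and 24 were tested. In elo-5 C13ISO larvae 11 were higher and 2 lower than in elo-5 C17ISO larvae, and 12 were higher and 1 lower than in N2. The medians of the 24 tested genes were 0.49 and 0.43. Over all 27, with ace-2, glt-4 and mod-5 from below the filter, they were 0.42 and 0.22. Tdc-1, the tyrosine decarboxylase that makes tyramine, read 239 and 299 in elo-5 C13ISO larvae, against 69.6 and 54.8 in elo-5 C17ISO larvae and 79.9 and 78.97 in N2 larvae. On elo-5 C13ISO arrays it was clear of the others, at 1.87 (SE 0.19, adjusted p = 3.09e-05) against elo-5 C17ISO and 1.57 (SE 0.19, adjusted p = 8.86e-05) against N2. Ace-3 and ace-4, of the acetylcholinesterase family that breaks down acetylcholine, gave 1.31 (adjusted p = 0.000609) and 1.04 (adjusted p = 0.00245) for ace-3 and 1.77 (adjusted p = 8.35e-05) and 1.48 (adjusted p = 0.000256) for ace-4. Dat-1, the dopamine transporter, gave 1.36 (adjusted p = 0.00152) and 1.01 (adjusted p = 0.00858), and glt-6, a glutamate transporter, gave 1.21 (adjusted p = 0.000655) and 1.71 (adjusted p = 6.48e-05). The higher count was 6 without elo-5 C17ISO replicate 2 and 7 with medians aligned or with a filter at the 50th percentile, against elo-5 C17ISO. Against N2 it was 5 without elo-5 C13ISO replicate 1 and 6 without either N2 array or with a filter at the 50th percentile, and the single lower gene, named after its values were seen, was glt-1, a glutamate transporter, at -0.38 (SE 0.13, adjusted p = 0.0411). Against N2, the call ended for glt-1 without elo-5 C13ISO replicate 1 or 2, elo-5 C17ISO replicate 1 or N2 replicate 1 (adjusted p = 0.0501 to 0.348), and with no filter, with quantile normalization, without an intensity trend or in a fit of only the arrays compared (adjusted p = 0.0528 to 0.0856). Another glutamate transporter, glt-5, was called lower than in N2 with quantile normalization (adjusted p = 0.0455), with aligned medians (adjusted p = 0.0414) and without elo-5 C13ISO replicate 1 (adjusted p = 0.00985). The lower count against elo-5 C17ISO was 1 without elo-5 C17ISO replicate 1. In the comparison with N2, the call was lost for dat-1 without elo-5 C13ISO replicate 1 (adjusted p = 0.0573), and with the mean of its probe sets (adjusted p = 0.0916).

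Markers of other tissues also moved between these groups. Their counts stand beside 26% higher and 18.8% lower of all tested probe sets against elo-5 C17ISO, and 23.4% and 20.5% against N2. Of 16 markers of oocytes and early embryos, 15 were higher against elo-5 C17ISO and all 16 against N2, of which chs-1 was tested only through elo-5 C13ISO, with a summed intensity of 10273 to 15795 on elo-5 C13ISO arrays, 2496 to 3416 on elo-5 C17ISO arrays and 3215 to 3882 on N2 arrays. Of 8 epidermal markers, 4 were lower against elo-5 C17ISO and 6 against N2, with sums of 4838 to 5585 on elo-5 C13ISO arrays, 12188 to 13100 on elo-5 C17ISO arrays and 12339 to 13237 on N2 arrays. Intestinal markers split, with 4 higher and 4 lower of 10 against elo-5 C17ISO and 2 and 3 against N2, and sums of 19236 to 21510 on elo-5 C13ISO arrays, 24982 to 27186 on elo-5 C17ISO arrays and 27352 to 28330 on N2 arrays. Of 5 glial markers, 1 was higher and 3 lower in each comparison, with sums of 2626 to 2748 on elo-5 C13ISO arrays, 3147 to 3526 on elo-5 C17ISO arrays and 2632 to 3085 on N2 arrays. No marker was at 0 on any array, and the part of these markers in the channel gene differences was not tested.

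**Figure D4:**
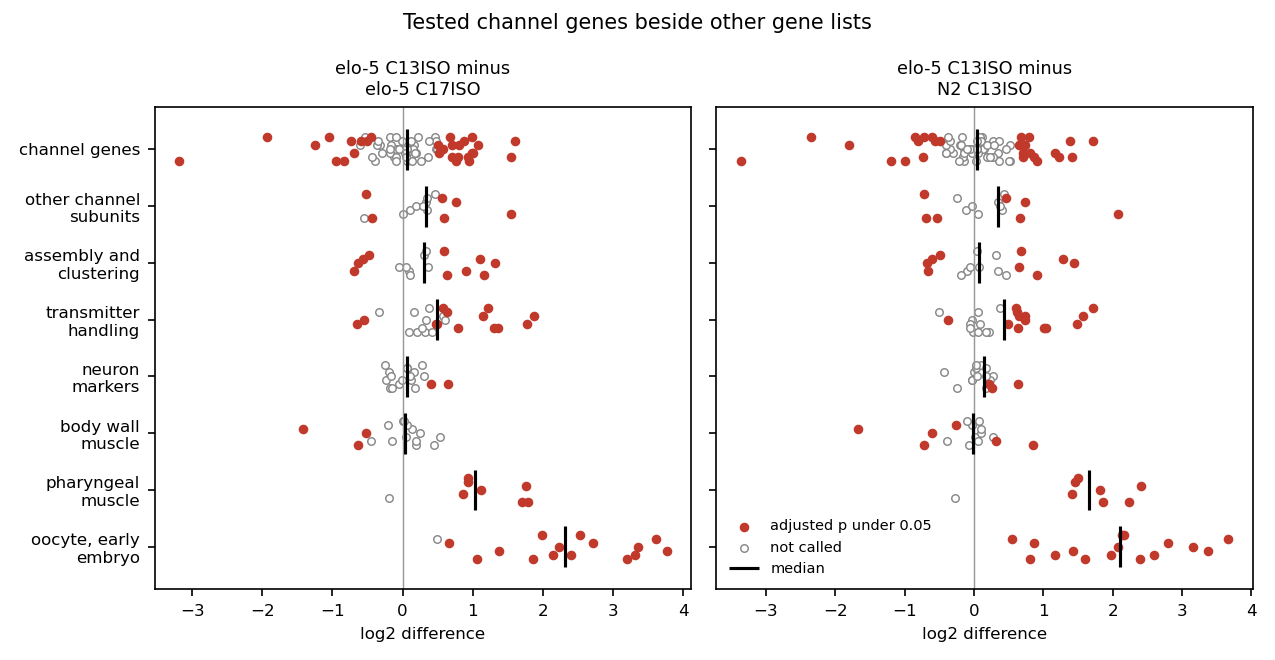
Log2 differences of the 70 tested channel genes beside the pathway lists and 4 of the marker lists, for elo-5 C13ISO against elo-5 C17ISO (left) and against N2 (right), with 1 point per gene, filled for an adjusted p under 0.05, and a bar at the median. The channel genes scatter on both sides of 0, while the markers of oocytes and early embryos and of pharyngeal muscle lie mostly above it. Filling follows the fit with the filter, which 7 channel genes, unc-33 and chs-1 passed only through 1 group.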

How the data were processed

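Per the labels, the authors deposited 1 dChip intensity for each probe set on each array, and the values (0.73 to 28838) show a linear scale. Not given in the sources used here were the dChip version, the handling of mismatch probes and the normalization of arrays. In the platform annotation 20766 of 22548 probe sets had 1 gene name, 887 had several and 895 had none. Only one-gene probe sets were named, and 5 that pair a channel symbol with another name were left out. A WBcel235 gene table matched 83 of the 84 symbols and served only for names and neighbours.

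The test was limma (lmFit, then eBayes with a trend) on log2(intensity + 16) for the 15783 probe sets whose mean intensity exceeded the 30th percentile. It used all 6 arrays and 1 mean for each group, which leaves 3 residual and 6.98 prior degrees of freedom. Two-sided p-values were adjusted by Benjamini-Hochberg across those probe sets, and the procedure was tested on simulated data. Nothing beyond the series design says that arrays of a group came from separate cultures, so p-values may measure technical spread. Software was R 4.3.3, limma 3.58.1, Python 3.11.15, pandas 2.3.3 and matplotlib 3.10.9.

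The members, lists, tests and alternatives were chosen with earlier results of these data known. Array values are given for the 10 largest called increases and decreases per comparison and for members with textbook roles. Any member could be named, as could up to 5 genes of a pathway list. There were 16 alternatives. They changed the offset (1 or 64), the filter (none or the 50th percentile), the scaling (quantile, or aligned medians), the intensity trend, the arrays fitted, the block by replicate number or the handling of several probe sets, or left out 1 array.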

Additional observations from a re-analysis of the deposited data

How the results depend on the processing

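Counts of called channel genes moved with several choices. A filter at the 50th percentile, which tests fewer genes, left 6 higher against elo-5 C17ISO, and 4 higher and 6 lower against N2. The lower count against elo-5 C17ISO was 18 with quantile normalization and 19 with array medians aligned, and in elo-5 C17ISO against N2 it was 1 (lgc-51) under both of these, in a fit of only the arrays compared and with the mean of a gene's probe sets, each in place of 0. Leaving out 1 array at a time, the counts against elo-5 C17ISO were 10 to 18 higher and 6 to 12 lower, those against N2 were 10 to 14 higher and 6 to 13 lower, and those of elo-5 C17ISO against N2 were 0 higher and 0 to 1 lower. The single arrays that moved a count most were elo-5 C17ISO replicate 1, without which 6 were lower, elo-5 C17ISO replicate 2, without which 10 were higher and 7 lower, and N2 replicate 1, without which 6 were lower against N2. A group left with 1 array was assumed to vary like the others. The cause of these shifts was not tested. An offset of 1 or 64, no filter and no intensity trend kept each count within 1.5 times its value.

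In the labels, arrays of different groups share only a replicate number. Deviations of same-numbered arrays correlated at 0.00105, 0.0533 and 0.0828 between groups. With 2 arrays per group, these values cannot tell whether same-numbered arrays were handled together. With a replicate block, 18 channel genes were higher and 12 lower against elo-5 C17ISO, 15 and 12 against N2, and 0 and 0 in elo-5 C17ISO against N2, with 7236, 7044 and 251 probe sets called in all, beside 7077, 6927 and 223 without it. The channel genes that gained a call under the block were lgc-49 against elo-5 C17ISO (adjusted p = 0.0289) and glr-4 against N2 (adjusted p = 0.0373).

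Dim probe sets limit what can be said of the 14 genes below the filter, and 18.3% to 20.9% of all values per array were under 16.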

Other observations

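Some channel genes lie side by side in the genome with no coding gene between them, by the WBcel235 gene table. The pairs are acr-2 and acr-3, acr-15 and acr-16, gab-1 and lgc-37, lgc-6 and lgc-5, lgc-13 and lgc-14, and lgc-14 and lgc-15. In acr-15 and acr-16 the calls parted, since acr-16 was lower in elo-5 C13ISO larvae and acr-15 was not called. Acr-15 read 73.3 and 92.3 in elo-5 C13ISO larvae, against 73.8 and 69.9 in elo-5 C17ISO larvae and 69.1 and 75.9 in N2 larvae. Its differences of 0.16 (adjusted p = 0.507) and 0.15 (adjusted p = 0.542) against elo-5 C17ISO and N2 stood beside -0.73 (adjusted p = 0.0101) and -0.56 (adjusted p = 0.0355) for acr-16.

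Of the 14 channel genes below the filter, those called with no filter, beside the shares of all probe sets given above, were lgc-9, glr-10 and acr-5. Lgc-9 read 13.04 and 23.2 in elo-5 C13ISO larvae, against 1.06 and 1.58 in elo-5 C17ISO larvae and 2.82 and 4.69 in N2 larvae. Its difference was 0.96 (SE 0.18, adjusted p = 0.00367) against elo-5 C17ISO and 0.77 (SE 0.18, adjusted p = 0.011) against N2. Glr-10 read 17.1 and 23.4 in elo-5 C13ISO larvae, against 5.60 and 2.29 in elo-5 C17ISO larvae and 2.89 and 6.62 in N2 larvae. Both elo-5 C13ISO values lie above the other 4 but are dim, and the difference was 0.86 (SE 0.18, adjusted p = 0.00636) against elo-5 C17ISO and 0.81 (SE 0.18, adjusted p = 0.00892) against N2. Acr-5 read 4.83 and 3.42 in elo-5 C13ISO larvae, against 9.37 and 11.9 in elo-5 C17ISO larvae and 10.2 and 16.7 in N2 larvae. It gave -0.40 (SE 0.17, adjusted p = 0.109) against elo-5 C17ISO and -0.54 (SE 0.17, adjusted p = 0.0412) against N2. Such values are near the low end of the scale, and their reliability was not tested.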
